A study of Mus musculus with 9 samples.

Results

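Potassium channel genes were followed through 9 whole NB9464 tumors, and were taken as every row of the count table whose symbol is Kcn, further letters and a number. The rule found 92 symbols among the 54429 in the table. Of these 92 genes, 75 had a count above 0 in at least 1 tumor and 17 had none, against 27965 of the 54429 symbols in the whole table with a count. All 92 were matched to 1 gene each in GENCODE M21 (GRCm38).

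NB9464 is a mouse neuroblastoma line with amplified MYCN, and its cells were placed under the skin of wild-type C57BL/6 mice. Treatment started at a tumor volume of 250 mm3. The vehicle group, the R788 + anti-PDL1 group and the Rad + R788 + anti-PDL1 group held 3 tumors each, and the last group is called irradiated below. R788 (fostamatinib) is a prodrug of an inhibitor of the kinase Syk, given at 50 mg/kg, anti-PDL1 is a monoclonal antibody against the checkpoint ligand PD-L1, and the radiation dose was 10 Gy, and treatment ran over 4 doses from day 28 to day 37. The labels do not say which of the agents these 4 doses cover. Each group received several agents or none, so the agents' separate effects cannot be told apart. All tumors came from the same cell line in immunocompetent mice, and a whole tumor holds host cells beside the neuroblastoma cells. In such bulk RNA, fewer cells of a type and less RNA per cell cannot be told apart. The labels do not say whether each library came from a separate mouse or when it was made, so p-values measure only the spread between these libraries.

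Potassium channels are membrane pores that let potassium ions leave or enter a cell, and they set the resting potential, the length of action potentials and, through the driving force for calcium, part of the calcium signaling of immune cells. Voltage-gated channels open on depolarization, and calcium- or sodium-activated channels open when those ions rise inside the cell. Inward rectifiers pass potassium into the cell more readily than out of it, and two-pore domain channels carry the background leak. Silent subunits form channels only together with a voltage-gated partner, and auxiliary subunits form no pore but change the trafficking and gating of the subunits that do. In neurons and in tumors of the neural crest these genes are studied for excitability and for the cell cycle.

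Total counts per library ran from 18276683 to 23397886. Values are given as CPM (a gene's counts per 1000000 counts of the library, scaled by the trimmed mean of M-values, TMM), and levels are compared between genes only as RPKM, which also divides by the kilobases of exon. A count of 0 allows up to 3 counts, or 0.114 to 0.221 CPM in these libraries, which covers counting error only. Irradiated replicate 1 stood apart, with a TMM factor of 0.743 against 0.975 to 1.12 in the other 8 libraries and 1.97% of its counts from mitochondrial genes against 3.48% to 5.71%. It had counts for 42 members, against 49 to 62 in the others. Of the 11 neuroblast markers checked, Hand2 and Mycn were abundant in every tumor, at 6545 to 12901 and 1265 to 6107 counts, whereas Th had 0 counts in all 9 tumors.

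Of the 75 detected members, 37 passed the filter on low counts and were tested among 15931 genes, and 38 did not pass. The tested members were 8 of 30 voltage-gated pore-forming genes, 2 of 10 silent subunits, 5 of 8 calcium- or sodium-activated channels, 7 of 15 inward rectifiers, 5 of 14 two-pore domain channels and 10 of 15 auxiliary subunits. No member of the Kv1 (8 genes) or Kv3 (4 genes) families and none of the 4 auxiliary subunits of the BK channel was among them. The 17 genes with no count were 7 voltage-gated genes, among them Kcna1, which is typical of mature neurons, 4 silent subunits (Kcng1, Kcns2, Kcns3 and Kcnv1), 3 inward rectifiers (Kcnj1, Kcnj3 and Kcnj5) and 3 two-pore domain genes (Kcnk9, Kcnk12 and Kcnk16).

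The potassium channel message of vehicle tumors was concentrated in a few genes. Kcnt1 (13.1 ± 4.28 RPKM, SD, n = 3), Kcne4 (12.4 ± 1.40 RPKM), Kcnab2 (9.71 ± 0.66 RPKM) and Kcnh2 (7.66 ± 3.15 RPKM) made up 61.0% of the summed RPKM of all members. The 10 highest made up 83.9%, and 13 members reached 1 RPKM. Kcnt1 (8.24 to 16.3 RPKM) overlapped with Kcne4 (11.5 to 14.0 RPKM), and Kcnab2 (9.21 to 10.4 RPKM) lay below Kcne4 in all 3 vehicle tumors but overlapped with Kcnh2 (5.82 to 11.3 RPKM). Next came Kcnip3 at 4.31 ± 0.55 RPKM, which encodes a calcium-binding partner of A-type channels, and Kcnj12 at 4.20 ± 1.88 RPKM, a strong inward rectifier. Kcnd1 (2.27 ± 0.39 RPKM), an A-type channel gene, Kcnk5 (1.85 ± 0.31 RPKM), Kcnn4 (1.81 ± 0.11 RPKM) and Kcnn1 (1.68 ± 0.39 RPKM) completed the 10.

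The leading gene was not the same in every tumor. Kcnt1 had the highest RPKM of all members in vehicle replicates 2 and 3, and Kcne4 in vehicle replicate 1. Kcnab2 led in all 3 R788 + anti-PDL1 tumors and in irradiated replicates 2 and 3, and Kcnh2 led in irradiated replicate 1. In the 3 R788 + anti-PDL1 tumors Kcnab2 took 22.6%, 16.2% and 24.9% of the summed RPKM.

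The summed level of the pore-forming members separated all 3 groups. It was 40.3, 40.7 and 40.1 RPKM in vehicle tumors, 31.2, 35.6 and 31.5 RPKM in R788 + anti-PDL1 tumors, and 47.0, 46.5 and 46.3 RPKM in irradiated tumors. The vehicle and irradiated sums lay within a narrow range although their parts did not, since irradiated replicate 1 had the highest voltage-gated sum (23.7 RPKM) and a low calcium- or sodium-activated sum (10.3 RPKM). Auxiliary subunits summed to 33.9, 27.9 and 28.0 RPKM in vehicle tumors and to 35.7, 37.3 and 35.1 RPKM in irradiated tumors, and these groups did not overlap. In R788 + anti-PDL1 tumors the auxiliary sum, 29.4, 24.1 and 29.7 RPKM, overlapped that of vehicle. Without Kcnt1 the sum over all members was 57.2 ± 7.63 RPKM in vehicle and 58.0 ± 2.40 RPKM in R788 + anti-PDL1 tumors, and those groups overlapped. These sums weigh each gene by its level and carry no test.

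**Figure D1:**
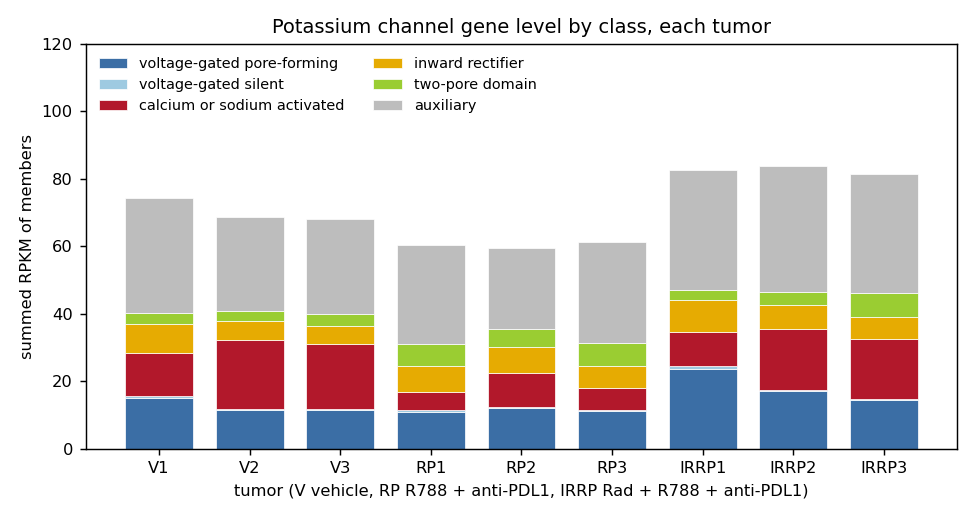
Summed RPKM of the potassium channel genes in each of the 9 tumors, stacked by channel class (y axis in RPKM, x axis tumors; V vehicle, RP R788 + anti-PDL1, IRRP irradiated). The red calcium- or sodium-activated part is smallest in the 3 RP tumors (5.41 to 10.0 RPKM), and the green two-pore domain part there is 5.43 to 6.93 RPKM against 2.92 to 3.66 RPKM in vehicle.

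The first comparison set R788 + anti-PDL1 against vehicle. By edgeR's quasi-likelihood test with Benjamini-Hochberg adjustment over all 15931 genes, 0 of the 37 tested members had an adjusted p under 0.05, where 0.678% of all genes did, 0.389% higher and 0.289% lower. At an unadjusted p under 0.05 there were 8 members, 5 higher and 3 lower, against 11.7% of all genes, 5.96% higher and 5.69% lower. DESeq2, the tool of the study, called 4 members (Kcnh3 and Kcnk10 higher, Kcne4 and Kcnt1 lower), against 4.86% of the genes it tested, 2.79% higher and 2.06% lower. In 14 members every tumor of one group lay above every tumor of the other, 10 higher in R788 + anti-PDL1 and 4 lower, where 30.1% of all genes did so, 13.6% higher and 16.6% lower. Among the 10 higher, Kcnj11 would not have passed the filter on low counts without the R788 + anti-PDL1 tumors, and Kcnk7 passed only through treated tumors. The median log2 fold change of the 37 was 0.35 and that of all genes -0.02. Many of these members have low counts, and among the 19 with at least 10 counts in every library the median was 0.15.

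Kcnt1 encodes Slack, a sodium-activated potassium channel of neurons. Its level was 78.2, 155 and 139 CPM in vehicle tumors, 7.71, 41.7 and 20.8 CPM in R788 + anti-PDL1 tumors, and 35.5, 118 and 109.5 CPM in irradiated tumors. Every R788 + anti-PDL1 tumor lay below every vehicle tumor, while irradiated replicate 1 lay within the R788 + anti-PDL1 range and irradiated replicates 2 and 3 within the vehicle range. The log2 fold change of R788 + anti-PDL1 against vehicle was -2.41 ± 0.63 (SE), with an edgeR adjusted p of 0.139 and a DESeq2 adjusted p of 0.00297. Without irradiated replicate 1, a library in neither of these groups, it was -2.37, and edgeR's adjusted p was 0.0371. Of the 9 edgeR fits without 1 library, only that 1 called Kcnt1, and it called 856 of 16618 genes in all. Irradiated against R788 + anti-PDL1 the log2 fold change was 1.91 ± 0.62 (edgeR adjusted p = 0.223, DESeq2 adjusted p = 0.0363), and these groups overlapped.

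Kcne4 encodes a single-span auxiliary subunit that damps several voltage-gated channels. It had 37.3, 31.2 and 30.6 CPM in vehicle, 17.4, 15.2 and 15.4 CPM in R788 + anti-PDL1, and 33.5, 30.3 and 24.8 CPM in irradiated tumors. The R788 + anti-PDL1 tumors were close to each other and below all 6 others. Against vehicle the log2 fold change was -1.05 ± 0.20 (SE; edgeR adjusted p = 0.0547, DESeq2 adjusted p = 8.83e-05). Without irradiated replicate 1 edgeR's adjusted p was 0.0104, the only call of Kcne4 here in the 9 edgeR fits without 1 library. Irradiated against R788 + anti-PDL1 the log2 fold change was 0.88 ± 0.20 (edgeR adjusted p = 0.158, DESeq2 adjusted p = 0.00181). Irradiated and vehicle tumors overlapped.

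Kcnh3 encodes a voltage-gated channel of the ELK branch found mainly in forebrain neurons, and its exons share 1 base with the antisense gene Mcrs1. It had 0.883, 0.807 and 0.493 CPM in vehicle, 2.47, 6.37 and 4.01 CPM in R788 + anti-PDL1, and 2.21, 1.52 and 2.69 CPM in irradiated tumors. All 6 treated tumors lay above the 3 vehicle tumors. The log2 fold change of R788 + anti-PDL1 against vehicle was 2.55 ± 0.50 (SE; edgeR adjusted p = 0.0663, DESeq2 adjusted p = 6.69e-05). Without irradiated replicate 1 edgeR's adjusted p was 0.0248, the only call of Kcnh3 here in the 9 edgeR fits without 1 library. With no filter on low counts edgeR called Kcnh3 as the single member, among 199 of 27965 genes. Irradiated against vehicle the log2 fold change was 1.55 ± 0.49, with an edgeR adjusted p of 0.278.

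Besides these and Kcnk10, given with its class, the members at an unadjusted p under 0.05 were Kcng4, Kcnu1, Kcnj11 and Kcnab1. Kcng4, a silent subunit that joins Kv2 channels, had 1.49, 1.17 and 1.48 CPM in vehicle and 0.308, 0.649 and 0.491 CPM in R788 + anti-PDL1 tumors (log2 fold change -1.50 ± 0.54, edgeR adjusted p = 0.301). Kcnu1, a channel known from sperm, had 0.717, 0.583 and 1.15 CPM in vehicle and 2.07, 2.17 and 1.19 CPM in R788 + anti-PDL1 tumors (log2 fold change 1.15 ± 0.48, edgeR adjusted p = 0.388). The vehicle and R788 + anti-PDL1 ranges of Kcnu1 were separated only by 1.15 and 1.19 CPM.

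Kcnj11 encodes the pore of the ATP-sensitive channel of beta cells and neurons, whose regulatory subunit is the sulfonylurea receptor encoded by Abcc8. Kcnj11 had 1.10, 0.180 and 0.329 CPM in vehicle, 3.30, 1.75 and 3.85 CPM in R788 + anti-PDL1, and 0.0737, 0.811 and 0.137 CPM in irradiated tumors. The R788 + anti-PDL1 tumors lay above all 6 others. The log2 fold change was 2.47 ± 0.90 (SE) against vehicle (edgeR adjusted p = 0.311) and -3.07 ± 0.93 for irradiated against R788 + anti-PDL1 (edgeR adjusted p = 0.222, DESeq2 adjusted p = 0.0249, called by DESeq2 in 5 of the 9 fits without 1 library). Abcc8 had 1, 0 and 0 counts in vehicle, 21, 13 and 14 in R788 + anti-PDL1, and 0, 5 and 1 in irradiated tumors. Both genes of this pair were thus at their highest in the R788 + anti-PDL1 tumors, at low counts, with an edgeR adjusted p of 0.126 for Abcc8 against vehicle. For neither gene is this separate support, since neither would have passed the filter on low counts without the R788 + anti-PDL1 tumors.

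Kcnab1 encodes a beta subunit with an oxidoreductase fold that speeds the inactivation of Kv1 channels. It had 2.26, 0.807 and 1.20 CPM in vehicle, 10.8, 0.954 and 7.82 CPM in R788 + anti-PDL1, and 0.589, 0.355 and 0.593 CPM in irradiated tumors. R788 + anti-PDL1 replicate 2 lay within the vehicle range, so the log2 fold change of 2.19 ± 0.78 (SE; edgeR adjusted p = 0.295) rested on replicates 1 and 3. All 3 irradiated tumors lay below all others. For irradiated against R788 + anti-PDL1 the log2 fold change was -3.66 ± 0.85 (edgeR adjusted p = 0.175, DESeq2 adjusted p = 0.000679). Its exons share 201 bases with an antisense gene, and no source used here gives the strandedness.

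**Figure D2:**
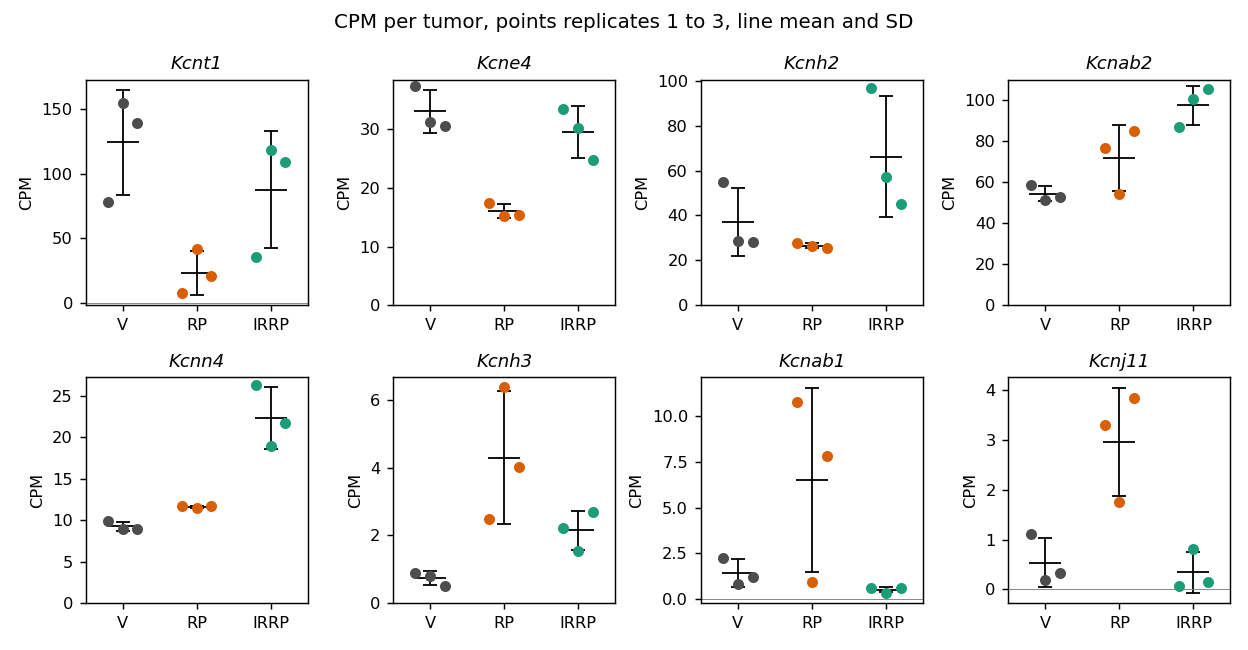
CPM of 8 members in the 9 tumors (one panel each, y axis in CPM from 0; points are replicates 1 to 3, the line is the mean and the bar the SD; V vehicle, RP R788 + anti-PDL1, IRRP irradiated). Kcnt1 and Kcne4 are lowest in RP, Kcnh3 and Kcnj11 highest in RP, and Kcnn4 highest in IRRP (18.9 to 26.4 CPM).

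All 5 tested two-pore domain members were higher in every R788 + anti-PDL1 tumor than in every vehicle tumor, where 13.6% of all genes were. For Kcnk7 this is no separate support, since it passed the filter on low counts only through treated tumors. The summed level of the whole class, members below the filter included, was 3.27, 2.92 and 3.66 RPKM in vehicle and 6.66, 5.43 and 6.93 RPKM in R788 + anti-PDL1 tumors. In irradiated tumors it was 2.97, 3.77 and 7.10 RPKM and overlapped both groups. None of the 5 tested members had an edgeR adjusted p under 0.05, 1 had an unadjusted p under 0.05, and DESeq2 called 1.

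Kcnk10, which encodes a mechanically gated and lipid-gated leak channel of the TREK type, had 3.97, 5.07 and 4.54 CPM in vehicle, 13.2, 7.90 and 13.9 CPM in R788 + anti-PDL1, and 6.70, 4.77 and 4.33 CPM in irradiated tumors. Its log2 fold change was 1.36 ± 0.33 (SE) in R788 + anti-PDL1 against vehicle (edgeR adjusted p = 0.108, DESeq2 adjusted p = 0.00158). Without irradiated replicate 1 edgeR's adjusted p was 0.0267, the only call of Kcnk10 here in the 9 edgeR fits without 1 library. Irradiated against R788 + anti-PDL1 the log2 fold change was -1.15 ± 0.32 (edgeR adjusted p = 0.217, DESeq2 adjusted p = 0.0202). The R788 + anti-PDL1 tumors thus lay above all 6 others.

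Kcnk5, an acid-sensitive leak channel, was the most abundant of the class, with 6.40, 5.16 and 7.28 CPM in vehicle, 10.9, 9.65 and 11.9 CPM in R788 + anti-PDL1, and 3.24, 7.76 and 11.5 CPM in irradiated tumors (log2 fold change of R788 + anti-PDL1 against vehicle 0.79 ± 0.41, edgeR adjusted p = 0.530). Kcnk6, a leak channel also known from macrophages and blood vessels, had 1.66, 1.03 and 1.86 CPM in vehicle, 2.51, 3.97 and 3.23 CPM in R788 + anti-PDL1, and 0.368, 1.52 and 8.30 CPM in irradiated tumors. Kcnk13, a leak channel known from microglia, had 1.05, 0.763 and 0.876 CPM in vehicle, 1.37, 1.22 and 1.64 CPM in R788 + anti-PDL1, and 0.663, 0.254 and 2.10 CPM in irradiated tumors. Both Kcnk6 and Kcnk13 were at their highest in irradiated replicate 3.

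The macrophage markers, all 8 of them tested, were not level between the groups. In R788 + anti-PDL1 against vehicle all 8 were higher, with a median log2 fold change of 0.61 and 0 at an unadjusted edgeR p under 0.05. Their summed level was 670, 305 and 381 CPM in vehicle, 695, 685 and 702 CPM in R788 + anti-PDL1, and 554, 351 and 1819 CPM in irradiated tumors. Irradiated replicate 3, the highest in Kcnk6 and Kcnk13, was also the highest in these markers, and vehicle replicate 1 reached nearly the R788 + anti-PDL1 level of the markers without doing so in Kcnk5, Kcnk6 or Kcnk13. Their part in the two-pore domain result was not tested.

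Kcnk7, a member for which little current has been found, had 4, 3 and 2 counts in vehicle, 13, 9 and 6 counts in R788 + anti-PDL1, and 13, 8 and 12 counts in irradiated tumors. Its log2 fold change was 1.29 ± 0.67 (SE) and 1.99 ± 0.68 against vehicle, with edgeR adjusted p of 0.522 and 0.301. Kcnk18, which encodes a calcium-regulated leak channel of sensory neurons and stayed below the filter, had 0 counts in all 3 vehicle tumors, 10, 2 and 26 in R788 + anti-PDL1 and 8, 9 and 7 in irradiated tumors. Against the 3 counts that 0 counts over the vehicle group allow, the pooled R788 + anti-PDL1 counts were 10.1-fold higher and the pooled irradiated counts 8.50-fold higher. These folds allow for counting error in vehicle only and not for the spread between tumors. The 2 counts of R788 + anti-PDL1 replicate 2 do not exceed what a count of 0 allows. Kcnk18 was the single member at 0 counts in every vehicle tumor with a count in all 6 treated tumors. The other two-pore domain members below the filter did not lie on one side. In R788 + anti-PDL1 tumors the mean CPM of Kcnk2 and Kcnk15 was higher than in vehicle. That of Kcnk4 (0.223 against 0.379 CPM), Kcnk1 and Kcnk3 was lower, all at low counts.

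**Figure D3:**
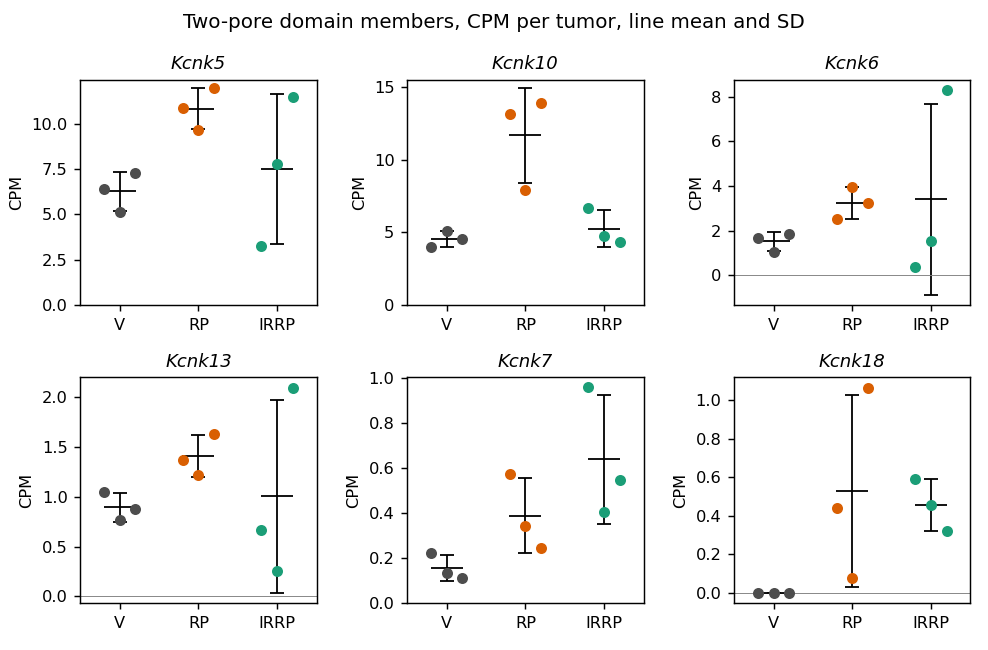
CPM of the 5 tested two-pore domain members and of Kcnk18, which was below the filter, in the 9 tumors (y axis in CPM; points are replicates 1 to 3, the line is the mean and the bar the SD, which can reach below 0; V vehicle, RP R788 + anti-PDL1, IRRP irradiated). In each panel the 3 RP points lie above the 3 vehicle points, and the IRRP points of Kcnk6 spread from 0.368 to 8.30 CPM.

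The regulatory sequence before these genes is shown because the tested members of this class lay higher together in the R788 + anti-PDL1 tumors, and that of Kcnn4, the member with the lowest adjusted p in irradiated tumors, is shown beside them. RefSeq promoter windows of 300 bases (GRCm38.p6) were found for 4 of the 5 tested two-pore domain genes, all but Kcnk6, and for Kcnn4. Printed is the stretch upstream of both the RefSeq and the GENCODE start, 5′ to 3′ on the gene's strand: chr12:98578311-98578463 (minus strand) for Kcnk10, chr12:99964249-99964498 (plus) for Kcnk13, chr14:20181810-20182032 (minus) for Kcnk5, chr19:5704221-5704366 (plus) for Kcnk7 and chr7:24370013-24370262 (plus) for Kcnn4. None of the 5 stretches overlaps an exon in GENCODE M21. Capitals mark matches, on either strand, to the canonical E-box CACGTG, the AP-1 motif TGACTCA or TGAGTCA, the cAMP response element TGACGTCA or the GC box GGGCGG or CCGCCC.
Kcnk10: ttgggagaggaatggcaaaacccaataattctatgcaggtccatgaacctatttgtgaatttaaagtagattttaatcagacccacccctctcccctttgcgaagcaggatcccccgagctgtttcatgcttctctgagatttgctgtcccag
Kcnk13: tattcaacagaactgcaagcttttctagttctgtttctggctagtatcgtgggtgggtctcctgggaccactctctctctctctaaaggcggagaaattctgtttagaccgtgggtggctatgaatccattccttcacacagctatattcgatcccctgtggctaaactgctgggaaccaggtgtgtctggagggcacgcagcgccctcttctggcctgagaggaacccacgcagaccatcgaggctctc
Kcnk5: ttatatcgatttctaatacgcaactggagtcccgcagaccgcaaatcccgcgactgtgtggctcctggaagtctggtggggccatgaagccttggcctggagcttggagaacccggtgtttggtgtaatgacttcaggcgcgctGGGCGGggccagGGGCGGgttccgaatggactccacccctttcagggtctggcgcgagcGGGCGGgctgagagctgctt
Kcnk7: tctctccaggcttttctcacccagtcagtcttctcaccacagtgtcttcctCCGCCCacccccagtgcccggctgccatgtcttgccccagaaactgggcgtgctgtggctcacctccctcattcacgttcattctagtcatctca
Kcnn4: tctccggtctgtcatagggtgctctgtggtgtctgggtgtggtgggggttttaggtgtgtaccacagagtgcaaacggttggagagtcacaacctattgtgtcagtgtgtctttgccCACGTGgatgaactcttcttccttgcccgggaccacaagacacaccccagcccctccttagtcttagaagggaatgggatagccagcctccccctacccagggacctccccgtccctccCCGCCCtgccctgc

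The 4 two-pore domain stretches did not share these letters. Kcnk5 held 3 GC boxes and Kcnk7 held 1, whereas Kcnk10 and Kcnk13 held no match. Kcnn4 held 1 E-box, the motif that MYC proteins can bind, and 1 GC box. In the whole windows of 300 bases, Kcnk10 also held 1 GC box and Kcnk5 1 E-box. Over all 32851 windows of the table, also of 300 bases, 7.15% held the E-box, 5.2% the AP-1 motif, 1.79% the cAMP response element and 35.7% the GC box. The GC content of the stretches ran from 45.8% in Kcnk10 to 61.4% in Kcnk5. A match is a description of the letters and not of a bound site.

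The second comparison set irradiated tumors against vehicle. By edgeR's quasi-likelihood test with Benjamini-Hochberg adjustment, 0 of the 37 members were called, where 0.0439% of all genes were. At an unadjusted p under 0.05 there were 8 members, 7 higher and 1 lower, against 13.2% of all genes, 7.71% higher and 5.51% lower. DESeq2 called Kcnn4 and Kcnab2, both higher, against 3.85% of its genes, 2.7% higher and 1.15% lower. For 9 members the tumors of both groups lay apart, 6 higher and 3 lower, where 20.5% of all genes did so, 9.26% higher and 11.2% lower. Among the higher ones, Kcne1 and Kcnk7 passed the filter on low counts only through treated tumors. The median log2 fold change of the 37 was 0.06, beside 0.05 over all genes, with 0.29 without irradiated replicate 1 and -0.053 without irradiated replicate 3.

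Kcnn4 encodes the intermediate-conductance calcium-activated channel of red cells, lymphocytes and macrophages. It had 9.88, 8.88 and 8.98 CPM in vehicle, 11.7, 11.4 and 11.7 CPM in R788 + anti-PDL1, and 26.4, 18.9 and 21.7 CPM in irradiated tumors. The 3 groups did not overlap with each other, in the order vehicle, R788 + anti-PDL1, irradiated. The log2 fold change was 1.27 ± 0.21 (SE) in irradiated against vehicle (edgeR adjusted p = 0.0912, DESeq2 adjusted p = 5.76e-07), and without irradiated replicate 1 it was 1.17 with an edgeR adjusted p of 0.0443. Of the 9 edgeR fits without 1 library, only that 1 called Kcnn4 here, and it called 57 of 16618 genes in all. Irradiated against R788 + anti-PDL1 the log2 fold change was 0.94 ± 0.21 (edgeR adjusted p = 0.159, DESeq2 adjusted p = 0.000804). Of the cell types known for this channel, the 5 erythroid markers summed to 201 to 624 CPM in vehicle and 48.8 to 183 CPM in irradiated tumors, so they lay the other way, and the 8 T cell markers summed to 3.50 to 8.77 and 5.82 to 43.1 CPM. The macrophage sums given above overlapped between the groups, but 7 of the 8 markers were higher and 1 lower in irradiated against vehicle. Their median log2 fold change was 1.18, 3 of the 7 had an unadjusted edgeR p under 0.05, and in 0 of the 8 did the groups lie apart. The part of these cell types in the Kcnn4 result was not tested.

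Kcnab2, which encodes the most widespread beta subunit of Kv1 channels, had 58.3, 51.4 and 52.8 CPM in vehicle, 76.3, 54.0 and 84.9 CPM in R788 + anti-PDL1, and 86.6, 100.2 and 105 CPM in irradiated tumors. The irradiated tumors lay above all 6 others. Against vehicle the log2 fold change was 0.85 ± 0.21 (SE; edgeR adjusted p = 0.187, DESeq2 adjusted p = 0.00424), and irradiated against R788 + anti-PDL1 it was 0.44 ± 0.20 with an edgeR adjusted p of 0.281. Kcnab2 shares 125 exonic bases with Gm16334 on the same strand. Its partners of the Kv1 family were near or at 0 counts throughout, the highest count of any of the 8 genes in a tumor being 29.

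Kcnh2, the hERG channel of heart and of several tumor lines, had 54.7, 28.4 and 28.2 CPM in vehicle, 27.8, 26.2 and 25.5 CPM in R788 + anti-PDL1, and 96.7, 57.0 and 44.9 CPM in irradiated tumors. Vehicle replicate 1 lay within the irradiated range, and all irradiated tumors lay above all R788 + anti-PDL1 tumors. The log2 fold change against vehicle was 0.83 ± 0.34 (SE; edgeR adjusted p = 0.355) and without irradiated replicate 1 it was 0.48. Irradiated against R788 + anti-PDL1 it was 1.32 ± 0.34 (edgeR adjusted p = 0.198, DESeq2 adjusted p = 0.0179).

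Kcnj8 encodes the pore of the vascular ATP-sensitive channel, which pairs with the receptor encoded by Abcc9 in pericytes and smooth muscle. It had 3.48, 2.24 and 1.53 CPM in vehicle, 2.03, 7.51 and 2.87 CPM in R788 + anti-PDL1, and 11.2, 5.73 and 5.98 CPM in irradiated tumors, with a log2 fold change of 1.65 ± 0.57 (SE; edgeR adjusted p = 0.304) in irradiated against vehicle. Irradiated and vehicle tumors did not overlap. Abcc9 had 8.88, 7.27 and 5.59 CPM in vehicle and 2.06, 5.32 and 5.66 CPM in irradiated tumors, so the receptor did not lie higher with the pore. The 7 pericyte and smooth muscle markers, all tested, summed to 300 to 401 CPM in vehicle, 268 to 431 CPM in R788 + anti-PDL1 and 282 to 340 CPM in irradiated tumors, but the members of this sum differed. In irradiated against vehicle the log2 fold change was above 0 in 3 of the 7 and below 0 in 4. Cspg4, a pericyte marker, had 35.8, 31.9 and 29.1 CPM in vehicle and 77.3, 63.5 and 59.1 CPM in irradiated tumors. Its groups lay apart as those of Kcnj8 did (edgeR adjusted p = 0.120). Myh11 lay apart the other way, at 1.44 to 1.71 CPM in vehicle and 0.368 to 1.22 CPM in irradiated tumors. The edgeR adjusted p of Myh11 was 0.453. In R788 + anti-PDL1 against vehicle, Acta2 had a log2 fold change of 1.45 and Des of -1.46 (edgeR adjusted p of 0.0763 and 0.0879). The part of these cells in the Kcnj8 values was not tested.

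Kcnn1, a small-conductance calcium-activated channel of neurons, was the single member that was lower in irradiated tumors at an unadjusted p under 0.05. It had 9.66, 6.19 and 7.23 CPM in vehicle, 3.52, 8.85 and 4.83 CPM in R788 + anti-PDL1, and 3.68, 4.21 and 4.65 CPM in irradiated tumors (log2 fold change -0.88 ± 0.39, edgeR adjusted p = 0.376). Kcnn1 and Kcnn4, both calcium-activated, thus lay on opposite sides of vehicle in irradiated tumors. Kcne1, the auxiliary subunit of the slow delayed rectifier of the heart, had 1, 1 and 0 counts in vehicle, 1, 6 and 18 counts in R788 + anti-PDL1, and 32, 2 and 13 counts in irradiated tumors. The depth-adjusted ratio of irradiated to vehicle counts was 25.0 with a 95% counting interval of 6.54 to 212, and replicate 1 held most of the irradiated counts. This interval pools the tumors of a group, so it covers counting error only and not the spread between tumors. Kcne1 passed the filter on low counts only through treated tumors, and its irradiated replicate 2 lay above vehicle by 2 counts against 1.

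The third comparison set irradiated tumors against R788 + anti-PDL1 tumors, which differ in radiation. By edgeR's quasi-likelihood test with Benjamini-Hochberg adjustment, 0 of the 37 members were called, where 0.00628% of all genes were, and 7 members had an unadjusted p under 0.05, 4 higher and 3 lower, against 18.4% of all genes, 11.7% higher and 6.65% lower. DESeq2 called 7 members, against 5.62% of its genes (3.38% higher, 2.24% lower), with Kcne4, Kcnh2, Kcnn4 and Kcnt1 higher and Kcnab1, Kcnj11 and Kcnk10 lower. For 7 members these groups lay apart, 4 higher and 3 lower, where 27.4% of all genes did so, 14.3% higher and 13.1% lower. The median log2 fold change was -0.14 over the 37 members and 0.04 over all genes. Kcnk5, Kcnk6, Kcnk13 and Kcnk7 overlapped between these groups, with edgeR adjusted p of 0.486, 0.965, 0.718 and 0.538.

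Read over all 9 tumors, the R788 + anti-PDL1 tumors lay below all 6 others in Kcne4 and Kcnh2 and above them in Kcnj11 and Kcnk10, and for these 4 members irradiated and vehicle tumors overlapped. That is 5.41% of the tested members on each side, where 6.86% and 4.98% of all tested genes did so. The irradiated tumors lay above all 6 others in Kcnab2 and Kcnn4 and below them in Kcnab1, where 3.51% and 3.94% of all genes did so. The vehicle tumors lay below all 6 treated tumors in Kcnh3, Kcnk7 and Kcnn4 and above them in 0 members, where 3.27% and 4.02% of all genes did so. Of these, Kcnk7 passed the filter on low counts only through treated tumors. Kcnj11 would not have passed it without the R788 + anti-PDL1 tumors, nor Kcnh3 on vehicle tumors alone, so their places here are no separate support. The 3 comparisons share their groups, so these orders are given side by side and not as independent results.

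**Figure D4:**
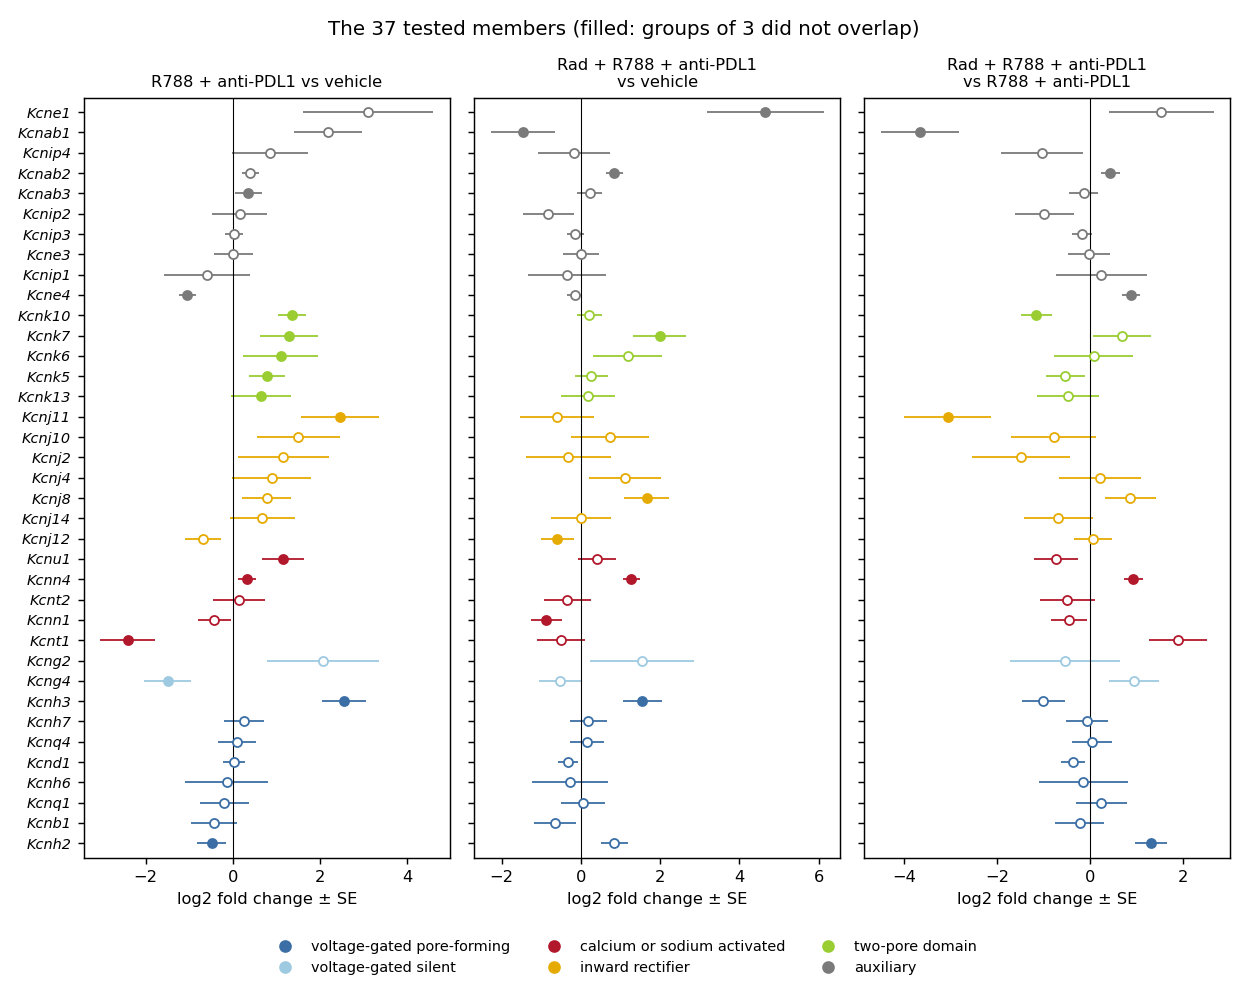
Log2 fold change with SE (x axis) of the 37 tested members in the 3 comparisons, ordered by channel class (color) and by the first comparison; filled points mark members whose 3 tumors per group did not overlap. In the first panel all 5 green two-pore domain points are filled and lie to the right of 0, and in the second panel Kcne1 lies farthest right with the widest bar among the filled points.

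Of the other abundant members, Kcnip3 had 15.3 ± 1.96, 15.6 ± 0.96 and 13.8 ± 2.07 CPM (SD, n = 3) in vehicle, R788 + anti-PDL1 and irradiated tumors, and its groups overlapped in all 3 comparisons. Kcnd1 had 12.0 ± 2.05, 12.2 ± 2.64 and 9.52 ± 0.41 CPM, with a log2 fold change of 0.02 ± 0.25 in R788 + anti-PDL1 against vehicle. Kcnj12 had 17.5, 8.30 and 8.82 CPM in vehicle, 9.78, 3.74 and 8.15 CPM in R788 + anti-PDL1 and 7.96, 7.45 and 7.39 CPM in irradiated tumors. All 3 irradiated tumors lay below vehicle in Kcnj12, with an edgeR adjusted p of 0.498.

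Among the 38 members below the filter, the highest count in a tumor was 77, 10 members had at least 10 counts in 1 tumor, and 14 never passed 3 counts. Kcnma1, the BK channel, had 77 counts in irradiated replicate 2 and 29 in R788 + anti-PDL1 replicate 1, and 0 to 5 in the other 7 tumors. Kcnn3 had 38 counts in R788 + anti-PDL1 replicate 2, 20 in irradiated replicate 2 and 0 to 9 elsewhere. Such counts in single tumors give no group difference.

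The Kv1 genes of lymphocytes were among them. Kcna3, the main voltage-gated channel of T cells, had 0 counts in vehicle, 0, 17 and 4 in R788 + anti-PDL1, and 0, 0 and 11 in irradiated tumors. Kcna5 had 1, 0 and 0 counts in vehicle, 0, 29 and 9 in R788 + anti-PDL1, and 0, 3 and 2 in irradiated tumors. The T cell markers summed to 8.77, 3.50 and 4.66 CPM in vehicle, 29.7, 15.3 and 17.3 CPM in R788 + anti-PDL1, and 5.82, 10.4 and 43.1 CPM in irradiated tumors, with 3 of 8 tested. Kcna3 was thus detected in 1 irradiated tumor, the one with the highest T cell sum. The sum of R788 + anti-PDL1 replicate 1 was mostly Cd4 (22.9 CPM). In these tumors Cd2 had 1, 36 and 9 counts and Cd3g 4, 17 and 2 counts, both highest in replicate 2, the tumor with the most Kcna3 counts. Cd3e (4, 5 and 1 counts), Cd8a (9, 25 and 6) and Lck (136, 257 and 93) were also highest in replicate 2. Cd3d (2, 3 and 6 counts) and Cd8b1 (0, 6 and 7) were highest in replicate 3. The T cells' part in the Kcna3 counts was not tested.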

How the data were processed

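The deposited table holds estimated counts per gene symbol for 9 libraries as whole numbers; per the labels and the methods, the authors aligned reads from polyA libraries to mm10 with STAR 2.6.1d and quantified them with Salmon 1.4.0, without normalization, and tested them with DESeq2. The labels name whole tumor as tissue and macrophages in the extraction text, and labels and methods differ on the sequencer; strandedness was not given. Groups came from the treatment label. The potassium channel genes, the gene lists and the naming rule were chosen with earlier results of these data known.

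Counts were filtered with filterByExpr (minimum count 10), scaled with TMM and tested with edgeR 4.0.16 under R 4.3.3 (robust quasi-likelihood, all 9 libraries, group as the only term). The call was a two-sided Benjamini-Hochberg adjusted p under 0.05 over 15931 genes. Fold changes carry the SE from the F statistic. RPKM used the union of GENCODE M21 exons. Total counts of 18276683 to 23397886 per library set the precision. No 2 replicates were alike within sampling noise.

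Members were named with values if called by edgeR or DESeq2, if among the 8 lowest unadjusted p in a comparison, if among the 10 highest in vehicle or highest of their class. Other members were named after their values were seen where a count singles them out (Kcnk6, Kcnk13, Kcnk18, Kcnma1, Kcnn3, Kcna3, Kcna5). Kcnk1, Kcnk2, Kcnk3, Kcnk4 and Kcnk15 were named to complete their class. Lists of channel partners, HCN, sodium and calcium channels, Na/K ATPase and 12 cell types were described by counts. Alternatives were DESeq2 1.42.0, limma 3.58.1 (voom, with and without quality weights), RLE and upper-quartile normalization, no filter, at least 10 counts in every library, the 6 libraries compared, a replicate block, another gene length and each library left out. DESeq2 with each library left out was added after the data were seen. The script was tested on simulated data. Some genes of these lists are not reported here.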

Additional observations from a re-analysis of the deposited data

How the results depend on the processing

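None of the 24 member values followed through the alternatives (those named for a low p or a call in that comparison) changed direction, whereas the members' median in irradiated against vehicle, 0.06, was below 0 in some. DESeq2 called 4, 2 and 7 members in R788 + anti-PDL1 against vehicle, irradiated against vehicle and irradiated against R788 + anti-PDL1, and 5, 3 and 4 partner and excitability genes. Voom with quality weights called 14, 5 and 8 members and 12, 4 and 7 of those genes, beside 4835, 1993 and 3080 genes in all, against 108, 7 and 1 by edgeR. In the first comparison, no low-count filter called 1 member, beside 199 of 27965 genes in all. The fit of only the 6 libraries compared called 3 members and 1 other list gene, beside 594 of 15467 genes in all. The cause of these differences was not tested.

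The median log2 fold change of the members was 0.18 with quality weights in the first comparison, -0.18 with voom, -0.24 without the filter and -0.23 with the replicate block in the third, and 0.15, 0.18 and -0.085 in the 3 comparisons with at least 10 counts in every library, which left 19 members. With each library left out in turn, edgeR's medians ran from 0.26 to 0.55, from -0.053 to 0.29 and from -0.22 (without R788 + anti-PDL1 replicate 1) to -0.070, with 0.55, 0.29 and -0.070 without irradiated replicate 1 and -0.053 without irradiated replicate 3. DESeq2's medians moved to 0.50, 0.51, 0.52 or 0.55 in the first comparison, to 0.16, 0.18, 0.19, 0.26, 0.28 or 0.30 in the second and to -0.18, -0.20 or -0.21 in the third. By both tools together, members called ran from 0 to 7, 0 to 4 and 0 to 8, and list genes called from 0 to 8, 0 to 5 and 0 to 6. All genes called ran from 0 to 2098, from 1 to 951 and from 0 to 1988 in these fits. By edgeR alone, leaving out irradiated replicate 1 called 4 members in the first comparison and 1 in the second, beside 856 and 57 of 16618 genes in all. Leaving out each other library called 0 members. In DESeq2, the first comparison lost Kcnk10 without R788 + anti-PDL1 replicate 3 and Kcnt1 without vehicle replicate 2, and the second lost Kcnab2 without vehicle replicate 2 or 3 or irradiated replicate 3. In the third, 1 of 7 calls remained without R788 + anti-PDL1 replicate 3 (Kcnab1). Kcnh2 was called there in 7, Kcnj11 in 5, Kcnk10 in 4 and Kcnt1 in 3 of the 9 fits.

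The replicate numbers do not pair the samples by the labels or the data, since same-numbered libraries correlated at -0.05 to 0.23. A replicate block called 0 members and 0, 3 and 0 genes in all, and changed no call of a member. Lengths of the longest transcript in place of the exon union moved the vehicle sum of auxiliary subunits to 36.4 RPKM and that of calcium- or sodium-activated channels to 24.3 RPKM. Depth limits the 38 members below the filter, for which a difference was mostly not detectable, and 3 tumors per group limit the rest.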

Other observations

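The genes around the potassium channels were not called by edgeR in any comparison: 0 of the 7 tested channel partners, 1 HCN gene, 8 voltage-gated sodium, 12 voltage-gated calcium and 9 Na/K ATPase genes had an adjusted p under 0.05, and at an unadjusted p under 0.05 there were 2, 0, 5, 1 and 0 in R788 + anti-PDL1 against vehicle (11.7% of all genes), 1, 0, 1, 3 and 3 in irradiated against vehicle (13.2%) and 1, 0, 1, 3 and 3 in irradiated against R788 + anti-PDL1 (18.4%). In irradiated against vehicle the 3 calcium channel genes were lower and the 3 Na/K ATPase genes higher. DESeq2 called 5, 3 and 4 genes of these lists. Scn8a, a sodium channel of neurons, had 69, 25 and 56 counts in vehicle, 237, 190 and 177 in R788 + anti-PDL1, and 26, 97 and 126 in irradiated tumors, and the R788 + anti-PDL1 tumors lay above all others. Scn3a, a sodium channel of the embryonic brain, had 0 counts in vehicle, 42, 4 and 74 in R788 + anti-PDL1, and 0, 30 and 4 in irradiated tumors. Fxyd5, a regulator of the sodium pump, had a log2 fold change of 1.28 ± 0.26 (SE; edgeR adjusted p = 0.136) in irradiated against vehicle.

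Of the marker lists, edgeR called 1 gene, Isl1, a neuroblast transcription factor with 0 counts in vehicle, 80, 48 and 63 in R788 + anti-PDL1 (adjusted p = 0.0344) and 14, 27 and 21 in irradiated tumors. Isl1 passed the filter on low counts only through treated tumors. The neuroblast markers summed to 506 to 632 CPM in vehicle, 624 to 700 CPM in R788 + anti-PDL1 and 626 to 980 CPM in irradiated tumors. This sum was mostly Hand2 and Mycn. In R788 + anti-PDL1 against vehicle, 3 of the 5 tested neuroblast markers were higher and 2 lower. The lower ones were Gata3 (log2 fold change -3.48, edgeR adjusted p = 0.227) and Ddc (-1.61, edgeR adjusted p = 0.155). The mature neuron markers, 3 of 10 tested and with Snap25 and Elavl4 at 0 in every tumor, summed to 84.8 to 142 CPM in vehicle, 62.4 to 94.2 CPM in R788 + anti-PDL1 and 65.3 to 169 CPM in irradiated tumors. Nearly all of this sum was Prph, and the other tested members lay the other way in R788 + anti-PDL1 against vehicle, with Syt1 at 3.43 to 7.12 against 0 to 1.71 CPM and Stmn2 at 0.264 to 1.79 against 0 to 0.164 CPM, so the median log2 fold change of the 3 was 2.73. Schwann or glia markers summed to 9.04 to 20.5, 15.0 to 21.5 and 6.11 to 18.7 CPM, and endothelium markers to 34.4 to 44.7, 43.2 to 111 and 47.6 to 59.3 CPM. Fibroblast markers summed to 2101 to 2556, 2505 to 3235 and 1069 to 2520 CPM, with irradiated replicate 1 the lowest. Skeletal muscle summed to 8.49 to 9.38, 8.15 to 10.9 and 9.44 to 27.3 CPM, and adipocyte markers to 17.9 to 42.6, 21.7 to 27.6 and 10.5 to 25.3 CPM. Keratinocyte markers summed to 4.93 to 7.72, 1.89 to 63.1 and 46.6 to 75.1 CPM, nearly all of it Krt5, whereas Krt14 had 0.221 to 2.36 CPM in vehicle, 0 in R788 + anti-PDL1 and at most 0.101 CPM in irradiated tumors. Sums follow their most abundant genes: in R788 + anti-PDL1 against vehicle the log2 fold change was above 0 in 2 of 3 tested Schwann or glia, 6 of 6 endothelium, 3 of 5 fibroblast, 3 of 4 skeletal muscle and 0 of 1 adipocyte markers. The part of these cells in the member results was not tested.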
